A study of Mus musculus with 2 samples.

Results

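The interleukin 1 family and its receptors were followed in the fat of mice of the inbred strain C57BL/6 as a set of 10 genes named by symbol: the agonists Il1a, Il1b, Il18 and Il33, the antagonists and decoys Il1rn, Il18bp and Il1r2, and the receptor chains Il1r1, Il1rap and Il1rl1. A member was read from every probe set (a group of short DNA probes that report 1 transcript) whose only symbol in the platform annotation was its own. This gave 16 probe sets for 9 of the 10 members, out of 45101 probe sets on the array and 18193 genes with a probe set of 1 symbol. No probe set carried Il1rl1 in the annotation used, and this gene was not analysed here.

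Mice received the high fat diet HFD32, meant to make them obese, or the normal diet CE-2 as the control, between 6 and 18 weeks of age. A single Affymetrix expression array per diet was hybridised with total RNA from adipose tissue, pooled from 3 animals. There were therefore no replicates and no replicate check, the diets could not be tested against each other, and every difference compares 2 pools whose spread between animals is unknown. Neither depot nor sex is stated in the labels.

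Interleukin 1 alpha and beta are cytokines that start local inflammation through the receptor Il1r1, which needs the shared chain Il1rap to signal to NF-kappa B. The system is restrained at each step. Il1rn encodes a ligand that occupies Il1r1 without signalling, Il1r2 is a receptor without a signalling domain that captures the cytokine, and Il18bp is a secreted protein that captures the product of Il18. The products of Il1b and Il18 are made as precursors that caspase-1 cleaves inside inflammasomes, whereas Il33 encodes a nuclear protein of stromal and barrier cells that acts on Il1rl1 when it is released. In obese fat macrophages are a source of Il1b and Il1rn, and adipocytes, fibroblasts and vessels carry Il1r1.

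The members that stood apart between the diets are Il1rn and Il33, and the 250 bases before their annotated start sites are given here together with those of Il1b, the agonist that Il1rn opposes. The sequences are RefSeq's for GRCm38.p6, written 5′ to 3′ along the transcript, and capitals mark matches to 5 motifs searched on both strands. The kappa B-like motif was GGGNNTTTC. The AP-1 motif was TGANTCA, which reads alike on both strands. The C/EBP-like motif was TTGCNNAA, the TATA box was searched as TATAAA, and the core of a PU.1 site as GAGGAA. All 5 were chosen with their matches in view.
Il1rn upstream start (chr2:24336610-24336859, plus strand): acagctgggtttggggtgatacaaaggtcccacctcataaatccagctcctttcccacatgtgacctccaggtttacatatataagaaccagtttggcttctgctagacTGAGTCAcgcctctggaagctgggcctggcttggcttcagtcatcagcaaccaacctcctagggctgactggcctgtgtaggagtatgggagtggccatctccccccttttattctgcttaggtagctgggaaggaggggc
Il1rn downstream start (chr2:24345121-24345370, plus strand): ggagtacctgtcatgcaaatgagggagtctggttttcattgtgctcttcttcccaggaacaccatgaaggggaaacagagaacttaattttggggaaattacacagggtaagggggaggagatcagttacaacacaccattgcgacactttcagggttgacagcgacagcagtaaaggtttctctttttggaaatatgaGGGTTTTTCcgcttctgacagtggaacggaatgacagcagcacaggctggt
Il1b start (chr2:129371140-129371389, minus strand): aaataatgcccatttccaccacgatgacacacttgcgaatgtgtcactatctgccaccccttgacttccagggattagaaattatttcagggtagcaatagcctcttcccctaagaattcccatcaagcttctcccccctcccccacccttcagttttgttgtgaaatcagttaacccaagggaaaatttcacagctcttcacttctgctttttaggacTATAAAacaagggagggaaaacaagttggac
Il33 upstream start (chr19:29924863-29925112, plus strand): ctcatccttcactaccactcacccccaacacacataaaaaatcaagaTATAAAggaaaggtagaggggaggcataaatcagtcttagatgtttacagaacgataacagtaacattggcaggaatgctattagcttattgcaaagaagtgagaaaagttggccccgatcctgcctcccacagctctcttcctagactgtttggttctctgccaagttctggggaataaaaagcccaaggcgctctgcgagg
Il33 downstream start (chr19:29945540-29945789, plus strand): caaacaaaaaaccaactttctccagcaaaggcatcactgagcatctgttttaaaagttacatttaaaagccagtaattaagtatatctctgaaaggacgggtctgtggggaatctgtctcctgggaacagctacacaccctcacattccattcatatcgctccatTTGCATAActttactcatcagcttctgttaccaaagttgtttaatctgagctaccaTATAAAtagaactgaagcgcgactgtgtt

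Il1rn has 3 annotated starts, and the middle one, which overlaps the downstream one and held no match, is not printed. The upstream Il1rn start had an AP-1 match TGAGTCA beginning 141 bases before it, and the downstream start a kappa B-like match GGGTTTTTC beginning 51 bases before it. The Il1b start had a TATA match beginning 31 bases before it and no other. Il33 had TATA matches beginning 203 and 29 bases before its upstream and downstream start, and a C/EBP-like match TTGCATAA beginning 85 bases before the downstream one. Over all 32851 promoter windows of the same length, 3.72% held the kappa B-like letters, 6.75% AP-1, 9.56% C/EBP-like, 12.4% TATA and 23.3% the PU.1 core. Of the 15 windows of the 10 members, 1 held the first, 2 the second, 4 the third, 5 the fourth and 1 (Il1a) the fifth. These matches describe letters in a window and are not shown to be bound sites.

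Signals are on the log2 scale, so that a difference of 1 is a 2-fold ratio, and differences are high fat diet minus normal diet. The background of each array was taken as the 95th percentile of 83 probe sets of olfactory, vomeronasal and bitter taste receptors, 4.95 on the high fat diet array and 4.92 on the normal diet array. The probe set with the highest mean stands for a gene, and the gene is counted as higher or lower when that probe set differs at least 2-fold with the brighter array above background. Error could be had only from genes with more than 1 probe set whose mean signal was at least 5.44, the median of the probe sets. These were 5131 genes, and the differences had an SD of 0.27 (log2) within a gene. This SD covers the probes alone, and no dimmer probe sets entered it.

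By this count 1 of 9 measured members, Il1rn, was higher on the high fat diet array, where 2.58% of all genes were, and 2 of 9, Il33 and Il1rap, were lower, where 2.87% of all genes were. The other 6 members differed by less than 0.5 on the log2 scale. The median difference of the 9 members was -0.09, beside 0.03 for all genes, whose quartiles lay at -0.19 and 0.24. The 3 members past 2-fold did not share a direction. Of the 16 probe sets, 3 passed 2-fold upward and 2 downward, where 2.13% and 2.48% of probe sets with 1 symbol were.

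**Figure D1:**
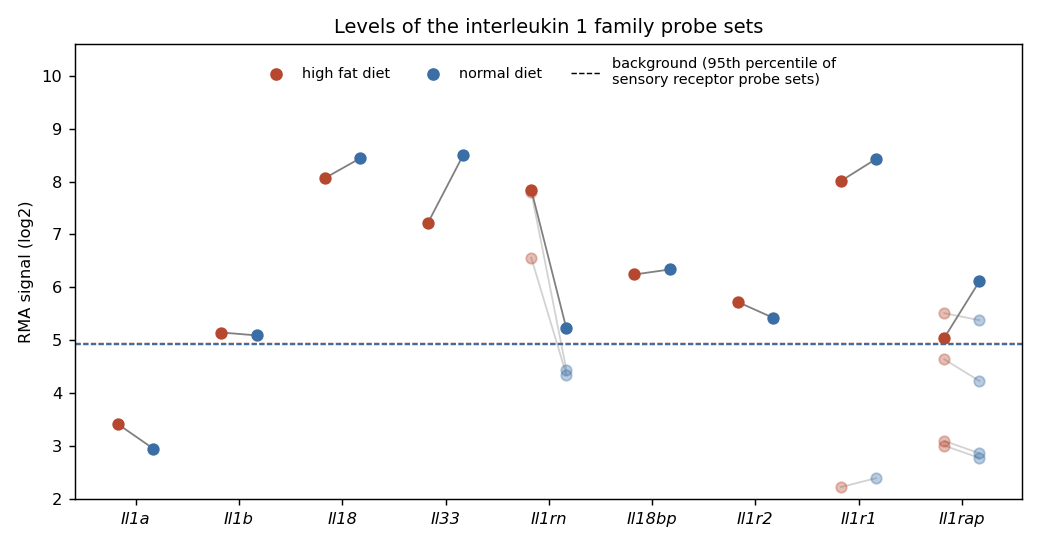
RMA signal (log2) of every probe set of the 9 measured members on the high fat diet array (left point of each pair) and the normal diet array (right point), with full colour for the probe set that represents the gene and pale colour for the others; dashed lines mark the background of each array. All 3 probe sets of Il1rn lie higher on the high fat diet array, and both signals of Il1a lie under background.

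Il1rn, the receptor antagonist, had a log2 signal of 7.85 on the high fat diet array and 5.22 on the normal diet array on its brightest probe set. The difference was 2.62, a 6.16-fold ratio and 9.89 times the SD of 0.27 between probe sets over the whole array. The normal diet signal lay little above the background of 4.92, where RMA compresses differences, so the ratio is not exact. Its other probe sets had 7.80 on the high fat diet array against 4.44 on the normal diet array, and 6.56 against 4.35. Both normal diet signals of these lay under background, so their ratios are bounds of at least 7.36-fold and at least 3.11-fold higher. All 3 probe sets pointed the same way, and the SD of their plain differences, 0.58, was larger than the 0.27 over the array. Neither SD holds the spread between animals. Among 18193 genes the difference of Il1rn was the 36th highest. In pooled tissue, more cells of a type and more RNA per cell cannot be told apart.

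Macrophage markers moved in the same direction as Il1rn. Of 17 such markers, 16 had a positive difference, 9 of these past 2-fold, beside 2.58% of all genes. The median of the markers was 1.04 (0.75 once probe sets with names ending in _s_at or _x_at were left out). Their median level was 10.76 on the high fat diet array and 8.88 on the normal diet array, their summed signal was 15.25 against 14.30 (log2), and every marker lay above background on both arrays. The lipid receptor Trem2 differed by 2.53, with 0.43 on its other probe set, and the membrane glycoprotein Gpnmb by 3.40, with 2.18 on its other probe set, against 0.04 for the scavenger receptor Cd163 and -0.40 for Mertk, which binds dying cells. The part of these cells in the Il1rn difference was not tested.

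Neither agonist of Il1r1 was past 2-fold. Il1b, the inducible cytokine of macrophages, had 5.15 on the high fat diet array and 5.09 on the normal diet array, both just above background, and a difference of 0.05. Il1a, which is active without cleavage, had 3.41 against 2.95, both under background, so no ratio is given. The difference of Il1rn exceeded that of Il1b by 2.57 on the log2 scale. The signal of the antagonist relative to that of Il1b was therefore 5.93 times as high on the high fat diet array. The probe set error of 0.38 on the 2.57 comes from probe sets with a mean of at least 5.44. Il1b was dimmer than this on both arrays, so the error may not hold for it. RMA compresses differences this near background.

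Il33, the alarmin, was the agonist with the lowest difference. It had 7.22 on the high fat diet array and 8.50 on the normal diet array, a difference of -1.28 and a 2.42-fold ratio, from its only probe set and well above background on both arrays. Only 2.02% of all genes had a lower difference. Markers of mesothelium, the lining of the body cavities, also had negative differences for 10 of 10 genes, 5 of these past 2-fold, beside 2.87% of all genes. The median was -0.95, with median levels of 7.33 on the high fat diet array and 8.07 on the normal diet array. Their summed signals were 10.95 and 11.94 on the log2 scale on the high fat and the normal diet array, and every one lay above background. The keratins Krt8 (-1.46) and Krt18 (-1.41) were the lowest, and Upk1b (-0.74) and Msln (-0.47) the nearest to 0. The others past 2-fold were Wt1, a further keratin, Krt19, and Muc16, which passed only barely. Krt19, Wt1 and Muc16 are named after their values were seen. Whether the keratin RNA came from mesothelium was not tested. Endothelial markers had negative differences for 10 of 10 genes, 0 of these past 2-fold, a median of -0.56 and summed signals of 11.59 on the high fat diet array and 12.11 on the normal diet array. Emcn had -0.76 and Cldn5 -0.30. Fibroblast and progenitor markers went both ways, 4 of 9 positive and 5 negative, with a median of -0.28, from Cd34 at -0.56 to Lum at 0.65, and taking the median over the probe sets of a gene gave 0.04. Hepatocyte, pancreas and skeletal muscle markers had lower medians than mesothelium, -5.40, -2.34 and -1.85. The part of any of these cells or tissues in the Il33 difference was not tested.

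Il18, a cytokine gene that many tissues express without stimulation, had 8.06 on the high fat diet array and 8.44 on the normal diet array, a difference of -0.37. Its inhibitor Il18bp had 6.24 against 6.34 and a difference of -0.09. The difference of the inhibitor minus that of the cytokine was 0.28, with a probe set error of 0.38. The 0.28 was less than 0.70, the 95th percentile of the gap between the differences of 2 probe sets of 1 gene. That percentile comes from 3105 genes with 2 probe sets of mean signal at least 5.44.

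**Figure D2:**
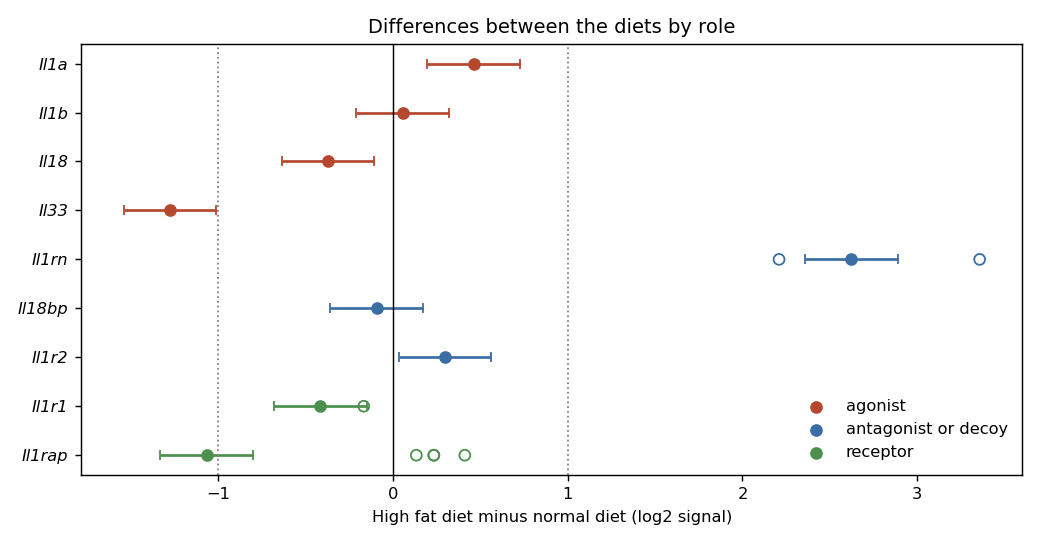
Difference in log2 signal, high fat diet minus normal diet, for each member grouped by role. Filled points with bars show the representing probe set ± the SD of 0.27 between probe sets of 1 gene. That SD comes from probe sets with a mean of at least 5.44, and Il1a and Il1b are dimmer. Open points show further probe sets at their plain difference even where a signal is under background. Dotted lines mark 2-fold. Il1rn stands alone on the right with its 3 probe sets, and the 5 probe sets of Il1rap fall on both sides of 0.

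The signalling receptor and the decoy for interleukin 1 moved little. Il1r1 had 8.01 on the high fat diet array and 8.43 on the normal diet array, a difference of -0.42, and its second probe set was under background on both arrays. Il1r2, the decoy, had 5.72 against 5.43 and a difference of 0.30. The decoy minus the receptor came to 0.71 with a probe set error of 0.38.

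Il1rap, the shared receptor chain, is counted as lower on a single probe set. That probe set had 5.04 on the high fat diet array and 6.11 on the normal diet array, a difference of -1.07 and a 2.10-fold ratio. A second one above background had 5.51 against 5.38, a difference of 0.13, and the remaining 3, all under background on both arrays, had differences from 0.23 to 0.41. The count thus rests on 1 of 5 probe sets. With the median of the probe sets the difference of Il1rap was 0.41. The signals behind it, 4.64 on the high fat diet array and 4.23 on the normal diet array, both lay under background. The turned sign is therefore not a reading of the gene. Centring each array on its median was enough to bring Il1rap inside 2-fold. Among 318 genes past 2-fold with further probe sets above background, those pointed the other way throughout in 10 (3.14%), and Il1rap was one of them. Liver also makes this chain, in a soluble form, and all 13 hepatocyte markers passed 2-fold downward, beside 2.87% of all genes. The median of these markers was -5.40 (-5.01 with signals under background raised to it). Their median levels were 5.68 on the high fat diet array and 9.99 on the normal diet array. Their summed signal was 9.49 on the high fat diet array and 14.87 on the normal diet array (log2), and 5 of them were under background on the high fat diet array, against 0 on the normal diet array. The part of liver RNA in the Il1rap probe set was not tested.

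**Figure D3:**
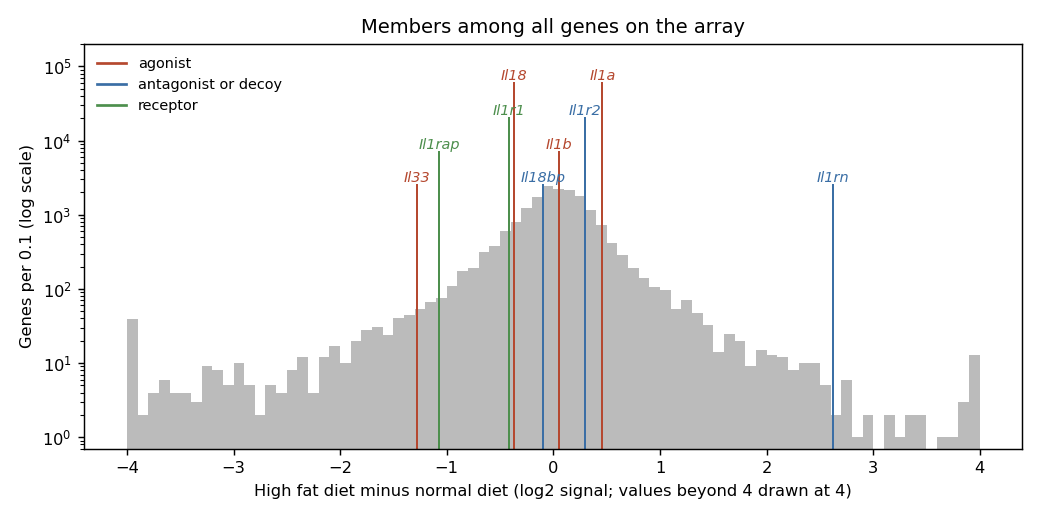
Number of genes (log scale) by difference in log2 signal, high fat diet minus normal diet, over 18193 genes, with the 9 measured members marked by coloured lines whose heights only separate the names. Il1rn at 2.62 lies in the upper tail, Il33 and Il1rap lie in the lower tail, and the other 6 lie within 0.5 of 0.

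Neighbouring genes were compared where genes of the family lie in a run on a chromosome. In the RefSeq gene order Il1rn ends a run of 6 ligand genes on chromosome 2, namely Il1f8, Il1f9, Il1f6, Il1f5, Il1f10 and Il1rn, all shown for their position, where the Il1f genes encode the interleukin 36 ligands, their antagonist and a related cytokine. Il1rn alone of them was past 2-fold, where 2.58% of all genes were upward and 2.87% downward. Il1f8 and Il1f9 were under background on both arrays, and the other 3 lay between -0.14 (Il1f5) and 0.41 (Il1f10). Il1f6 was under background on the normal diet array. On the high fat diet array Il1f5 and Il1f6, both at 4.96, lay barely above it. A lower signal could hardly have been seen for such dim genes. Il1a and Il1b are neighbours elsewhere on chromosome 2. On chromosome 1 the receptor genes Il1r2, Il1r1, Il1rl2, Il1rl1, Il18r1 and Il18rap form another run of 6, and the 5 measured ones had differences of 0.30, -0.42, 0.01, -0.37 and 0.13 in that order with Il1rl1 left out. Il33 stands on chromosome 19, Il18 on chromosome 9, Il18bp on chromosome 7 and Il1rap on chromosome 16, and no neighbours were read for these.

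The remaining ligands and receptors of the family held none past 2-fold. Of 11 such genes, all measured, 8 had a positive and 2 a negative difference, and the median was 0.05. With 2.58% of all genes past 2-fold upward and 2.87% downward, 0 of 11 is near those shares. On both arrays 4 of the 11 were under background, where the rule cannot count them. Il18r1, the ligand-binding chain for the product of Il18, had -0.37. Their signals were dim, with a median level of 4.96 on the high fat diet array and 5.10 on the normal diet array.

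Genes that process the cytokines went both ways. Of 15 measured genes of 18 listed, 10 were positive, 3 past 2-fold upward and 1 downward, and the median was 0.15. Over all genes the shares past 2-fold were 2.58% upward and 2.87% downward, and 1 of the 3 here, Mmp3, is also counted among the target genes. Pycard, the adaptor that assembles inflammasomes, had 9.06 on the high fat diet array and 7.71 on the normal diet array, a difference of 1.35, although another of its 3 probe sets differed by only 0.26. Casp1, the protease that cleaves the precursors of Il1b and Il18 and named here after its values were seen, had 9.24 against 7.91, a 2.52-fold ratio. Mmp3, a matrix protease that can also cleave the Il1b precursor, had 7.81 against 5.62, a 4.56-fold ratio. The sensor Nlrp3, also named after its values were seen, had 5.37 against 5.23 and a difference of 0.14. Prtn3, a neutrophil protease, was 3.27-fold lower, with 6.33 on the high fat diet array and 8.04 on the normal diet array, and Txnip had -0.46. Casp1 and Pycard are expressed by macrophages, whose markers had a median of 1.04, and that part was not tested.

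Genes of signal transduction downstream of the receptor had small differences of either sign. Of 26 measured genes of 29 listed, 16 were positive and 10 negative, with a median of 0.08, 1 past 2-fold upward and 0 downward, close to the shares of 2.58% and 2.87% over all genes. The one past 2-fold was Rel, an NF-kappa B subunit of leukocytes, with 5.15 on the high fat diet array and 3.89, under background, on the normal diet array, at least 1.18-fold higher. The kinase gene Map2k6 had 0.76, and the ubiquitin ligases Peli1 and Peli2 had -0.64 and -0.69.

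**Figure D4:**
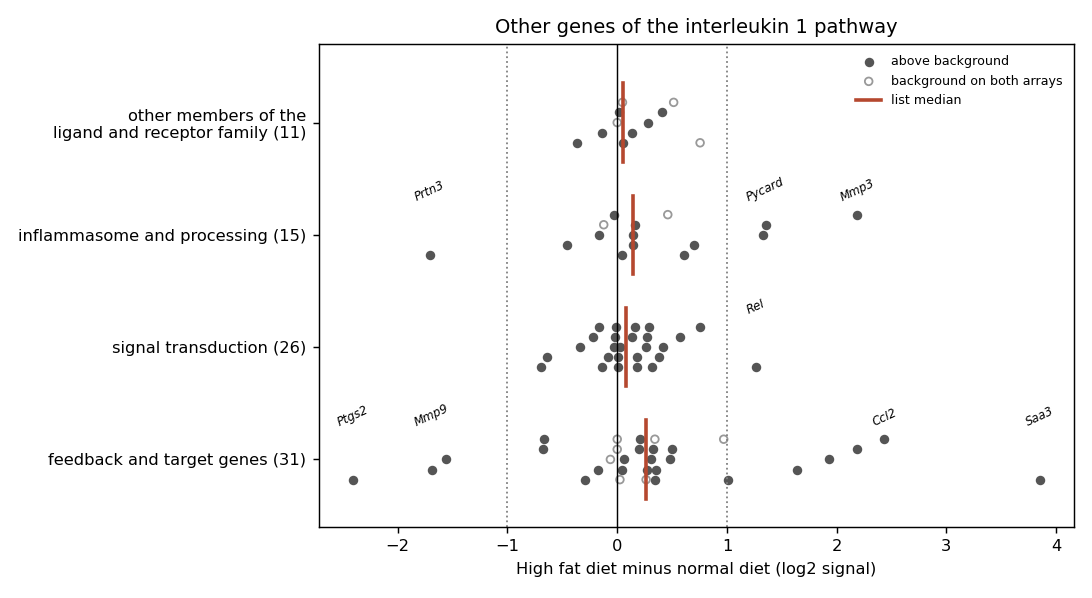
Difference in log2 signal, high fat diet minus normal diet, for other genes of the pathway in 4 lists, with the number measured in parentheses; each point is a gene, open points are under background on both arrays, vertical bars are list medians and dotted lines mark 2-fold. The list medians lie between 0.05 and 0.26, and the named genes past 2-fold fall on both sides among processing and target genes.

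Feedback and target genes of the pathway split in both directions. Of 31 genes, all measured, 21 were positive and 8 negative, 6 were past 2-fold upward and 3 downward, where 2.58% and 2.87% of all genes were, and the median was 0.26. Saa3, an acute-phase protein of inflamed fat, had 10.87 on the high fat diet array and 7.01 on the normal diet array, a 14.5-fold ratio, and Ccl2, a monocyte attractant, had 9.64 against 7.20, a 5.41-fold ratio. Tnip1, Cxcl2, Ccl7 and Mmp3 were the others past 2-fold upward, with Cxcl2 only bounded at 1.33-fold. Tnip1, Cxcl2 and Ccl7 are named after their values were seen. Ptgs2, the inducible cyclooxygenase, had 8.37 on the high fat diet array and 10.77 on the normal diet array, 5.30-fold lower, and the other probe set had -1.70. Ptges, which makes prostaglandin E from its product and is named after its values were seen, was 2.94-fold lower, with 7.60 against 9.16 and the same sign on 3 of 3 probe sets. Mmp9 was 3.22-fold lower. Il6, a cytokine gene named after its values were seen, was under background on both arrays. These genes answer to many signals besides interleukin 1.

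As checks on the tissue, all 10 measured adipocyte markers lay above background on both arrays, with a median level of 13.17 on the high fat diet array and 12.71 on the normal diet array and a median difference of -0.07, from Slc2a4 (-0.74) and Pparg (-0.47) to Cidec (0.25) and Lep (1.08). RNA of other tissues differed between the pools. Pancreas markers had a median of -2.34 over 8 genes, with Cpb1 and Cela2a at least 15.5-fold and at least 19.3-fold lower and Cela1 at 0.95. Taking the median over the probe sets of a gene, the pancreas median was -3.04. Above a floor at the 75th percentile of the probe sets only Cela1 was left, so the 0.95 found there is this gene alone. Skeletal muscle markers had -1.85 over 10 genes, and -1.44 with signals under background raised to it. Epididymis markers had 4.27 over 6 genes, of which 4 were under background on the normal diet array, and 3.60 with such signals raised to background. Markers of cells that could carry Il1r2 or Il1rl1 were mixed. Neutrophil markers had a median of 0.01 over 10 genes, with S100a8 at 2.11 and S100a9 at least 2.80-fold lower. Mast cell and eosinophil markers had 0.09 over 14, and markers of type 2 lymphoid and regulatory T cells 0.30 over 10. Under background on both arrays were 3 of the neutrophil markers, 6 of the mast cell and eosinophil markers and 6 of the lymphoid markers. At the floor of the 75th percentile only S100a8 and Lcn2 were left of the neutrophil markers, with a median of 0.97. Lcn2 (-0.18) is named after its values were seen. At the floor set to the median of the probe sets, mast cells and eosinophils had -0.28. There the lymphoid list kept only Ikzf2 (-0.98) and Il7r, with a median of 1.07. Il7r in the last list differed by 3.13 and Gata3 was at least 2.06-fold lower.

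**Figure D5:**
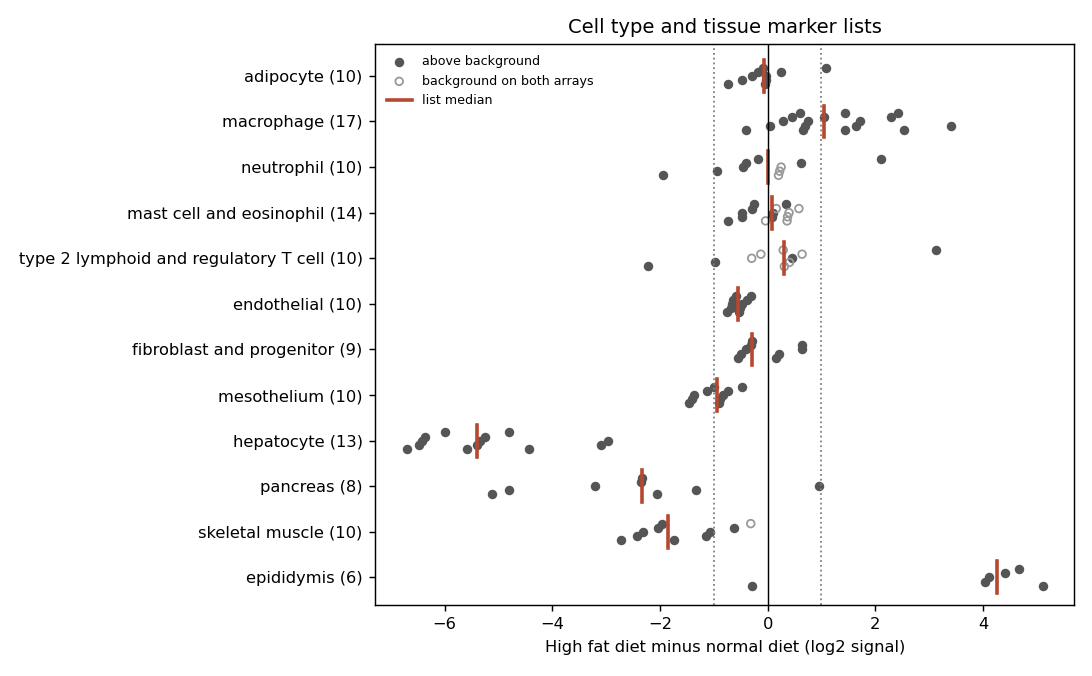
Difference in log2 signal, high fat diet minus normal diet, for marker genes in 12 lists, with the number measured in parentheses; each point is a gene, open points are under background on both arrays, vertical bars are list medians and dotted lines mark 2-fold. Signals are plotted as deposited, under background too. Macrophage and epididymis medians lie at 1.04 and 4.27, and hepatocyte, pancreas and skeletal muscle medians at -5.40, -2.34 and -1.85.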

How the data were processed

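The series holds 2 arrays of 45101 probe sets each, and the authors deposited RMA signals on a log2 scale, per the submitters' processing notes for RMA. That the scale is log2 follows from the range of the values, 2.06 to 14.21 for the high fat diet and 2.04 to 14.28 for the normal diet. After sorting, the columns differed by at most 0.14, so the arrays had been brought to nearly the same distribution, which removes any change in total RNA. RMA also compresses differences near background. The number of arrays limits the precision.

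Gene symbols come from the platform annotation held by GEO, which can be old. Of these, 34958 had 1 symbol (13 of them controls, left out), 932 had several, and 9160 other than controls had none. By Entrez gene ID 34741 were found in the RefSeq table of GRCm38.p6, which changed 0 symbols. Differences, counts and medians were computed in Python 3.11.15 with pandas 2.3.3. The calling step was run on simulated data as a check of the code alone. The simulated shifts lay well past 2-fold in bright genes, so this run says nothing of dim members or of differences near 2-fold. No test between the diets was run. Named genes are all members, and of each pathway or marker list the 2 farthest up and the 2 farthest down with a signal above background, not all of which the text gives. Genes of the family are also named for their position, and others outside the rule are said to be. The members and lists were chosen with earlier results of these data known. Alternatives changed the floor on low signals, the probe sets used, the centring, the treatment of background and the fold.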

Additional observations from a re-analysis of the deposited data

How the results depend on the processing

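No paired analysis was possible because each diet has 1 array. With 1 array per diet no replicate could be left out. Of 46 differences of single members under the alternatives, 43 moved by less than the probe set SD. Most of these could not have moved further, so the 43 do not show stability. The floors and the left-out probe sets changed no member's value, and centring shifted all members by the same amount, less than that SD. Only Il1a had representing signals under background to raise. Only Il1rn, Il1r1 and Il1rap had further probe sets to take a median over, and Il1r1 then had -0.29 in place of -0.42. Il1a had 0.03 with signals under background raised to it. Il1rn had 3.36 with the median of its probe sets, a plain difference against a normal diet signal under background and so no exact value. Il1rap had 0.41 with the median of its probe sets. Both signals behind the 0.41 lay under background, so the turned sign is not a reading of the gene. The number of members at least 2-fold lower was 1 in place of 2 with the median of the probe sets, with each array centred on its median, and with the floor at the 75th percentile of the probe sets. That floor kept 3 members, left out Il1rn, and so gave 0 members higher; 190 genes were then higher and 132 lower, in place of 469 and 523. At 1.5-fold 1130 genes were higher and 1237 lower, with the same counts of members, 1 and 2. The median difference of the members, -0.09 over 9, was -0.37 over the 7 above a floor at the median of the probe sets and -0.42 over the 3 above the higher floor, since fewer members entered. The 4 pathway list medians moved by less than the probe set SD under all alternatives run, and 13 of 71 marker list medians moved by more. The pancreas median turned sign at the higher floor (0.95), where Cela1 alone was left. That of mast cells and eosinophils turned at the lower floor (-0.28), and that of fibroblasts with the median of the probe sets (0.04). Neutrophils had 0.97 at the higher floor, from Lcn2 and S100a8 alone. The type 2 lymphoid list had 1.07 at the lower floor, from Ikzf2 and Il7r alone, and 0.03 with signals raised to background. The signal over background limits what can be read of Il1a, Il1b and the dim probe sets of Il1rap.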
